A study of Homo sapiens with 2 samples.

Results

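The metallothioneins are small cysteine-rich proteins that bind zinc and copper and keep free metal in the cell low, and liver is among the tissues that make most of them. Their genes lie side by side on chromosome 16. The transcription factor MTF1 senses zinc and binds metal response elements in the promoters of these genes and of SLC30A1, which encodes the zinc exporter of the plasma membrane. When zinc rises, metallothioneins store it and SLC30A1 carries it out of the cell. Metallothionein genes are also known to answer oxidants and glucocorticoids.

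The members described here were 10 genes of this system, the metallothionein genes MT1A, MT1B, MT1E, MT1F, MT1G, MT1H, MT1X and MT2A together with MTF1 and SLC30A1, out of 20503 genes that could be named on the arrays. They were taken by gene identity. Every probe whose RefSeq transcript belongs to a member was used, which gave 13 probes of 50599, each present as 1 spot. The cells were HepG2, an established human hepatocellular carcinoma line, and both groups received the same medium and the same 24 h of culture. The control group was treated with DMSO (1‰), and the other group with hawk tea extract (HTE), an ethanol extract of the leaves redissolved in DMSO. The sample labels give an HTE dose of 200 μg per mL, while the deposited name of the HTE array carries the number 300. The study's text names the higher of these doses for its array experiment and reports reduced cell viability at that dose. Total RNA of each group was hybridised to 1 array, and the 2 arrays share a slide. Without replicates no test could compare the groups, and the variation between cultures is unknown.

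All 11 hepatocyte markers of a list, albumin among them, stood well above background, with log2 levels of 0.39 to 5.37 on the DMSO array and 0.03 to 5.58 on the HTE array. A log2 level is the log2 signal minus the log2 of the 75th percentile of signals on its own array (4020 on the DMSO array, 3570 on the HTE array). Of 8 markers of leukocytes, endothelium and fibroblasts, CD3E, COL1A2 and DCN did not stand well above background on the 2 arrays, and the levels of the other 5 ran from -4.47 to 0.04 on the DMSO array and from -5.10 to 0.51 on the HTE array. Summed over these 5, by brightest probe, the signal was 7929 on the DMSO array and 7934 on the HTE array, but this sum rests mostly on CD68 and PTPRC. By log2 ratio of HTE over DMSO of these probes, 3 of the 5 were lower and 2 higher, with a median of -0.63. They ran from -1.82 for PECAM1, an endothelial adhesion molecule, to 0.46 for CD68, a macrophage marker. PTPRC was counted as higher, but its other, dimmer probe gave -0.88. The part of these 5 markers in the results was not tested. The share of spots, controls aside, that the scanner software called well above background was 60.6% for DMSO and 56.6% for HTE, and none was saturated. By brightest probe, 7 of the 11 hepatocyte markers were higher and 4 lower. Their log2 ratios ran from -1.11 for FGA, which was past 2-fold, to 0.32 for AHSG. Among 13 reference genes the values by brightest probe ran from -0.49 for TBP to 0.43 for GAPDH, and a dimmer probe of 1 of these genes gave 0.70.

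The promoters of 6 members were in the RefSeq promoter table, and 5 are shown to let a reader see where the metal response core lies in 4 metallothionein genes and in SLC30A1. MT1F and MT1G are not among them. Each is the 250 bases before the annotated start of the gene, 5′ to 3′, in build GRCh38.p14, at chr16:56608334-56608583 for MT2A, chr16:56651636-56651885 for MT1B, chr16:56669564-56669813 for MT1H and chr16:56682220-56682469 for MT1X, all on the plus strand, and at chr1:211579162-211579411 on the minus strand for SLC30A1. Capitals mark matches to the metal response core on either strand, searched as TGCACNC and TGCGCNC.
MT2A: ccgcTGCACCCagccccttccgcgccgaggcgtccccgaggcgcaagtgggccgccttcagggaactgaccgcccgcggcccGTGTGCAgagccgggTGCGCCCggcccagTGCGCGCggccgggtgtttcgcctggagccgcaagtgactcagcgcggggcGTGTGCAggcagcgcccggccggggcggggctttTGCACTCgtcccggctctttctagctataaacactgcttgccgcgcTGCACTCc
MT1B: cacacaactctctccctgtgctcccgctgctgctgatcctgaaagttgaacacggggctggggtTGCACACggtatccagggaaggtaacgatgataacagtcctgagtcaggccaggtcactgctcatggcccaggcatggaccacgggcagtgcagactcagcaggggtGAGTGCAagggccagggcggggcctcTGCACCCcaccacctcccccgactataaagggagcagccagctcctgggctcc
MT1H: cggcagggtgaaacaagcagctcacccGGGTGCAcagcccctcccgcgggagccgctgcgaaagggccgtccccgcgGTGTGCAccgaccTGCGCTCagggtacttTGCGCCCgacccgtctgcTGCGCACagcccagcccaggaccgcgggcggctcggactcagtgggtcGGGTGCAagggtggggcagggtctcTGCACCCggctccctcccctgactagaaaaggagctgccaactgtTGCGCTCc
MT1X: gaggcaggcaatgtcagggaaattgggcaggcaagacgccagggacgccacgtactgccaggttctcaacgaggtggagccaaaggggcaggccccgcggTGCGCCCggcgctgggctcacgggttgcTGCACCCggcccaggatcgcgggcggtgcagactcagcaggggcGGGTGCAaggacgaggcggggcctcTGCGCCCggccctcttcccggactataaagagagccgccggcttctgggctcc
SLC30A1: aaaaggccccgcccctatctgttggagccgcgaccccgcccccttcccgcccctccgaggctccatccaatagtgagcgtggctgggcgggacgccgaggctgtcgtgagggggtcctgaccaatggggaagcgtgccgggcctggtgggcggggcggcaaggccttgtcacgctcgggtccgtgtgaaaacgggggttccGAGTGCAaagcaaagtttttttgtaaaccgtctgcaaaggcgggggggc

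The metal response core was found 8 times before MT1H, 7 times before MT2A, 4 times before MT1X and 3 times before MT1B. SLC30A1 had 1 match and MTF1 had none. Among all 35116 promoters of this length, 24.8% held at least 1 match and 1.58% held at least 3. One match stood in the same place in MT1B, MT1H and MT1X, from -53 to -47 before the start, and from -54 to -48 in MT2A. The antioxidant response core, searched on both strands as TGACNNNGC, was found once each before MT2A, MT1B, MT1X and SLC30A1 and is present in 10.9% of all promoters. The metallothionein genes are copies of one another, so elements they share are not independent observations. No relation between matches and log2 ratios was tested.

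**Figure D1:**
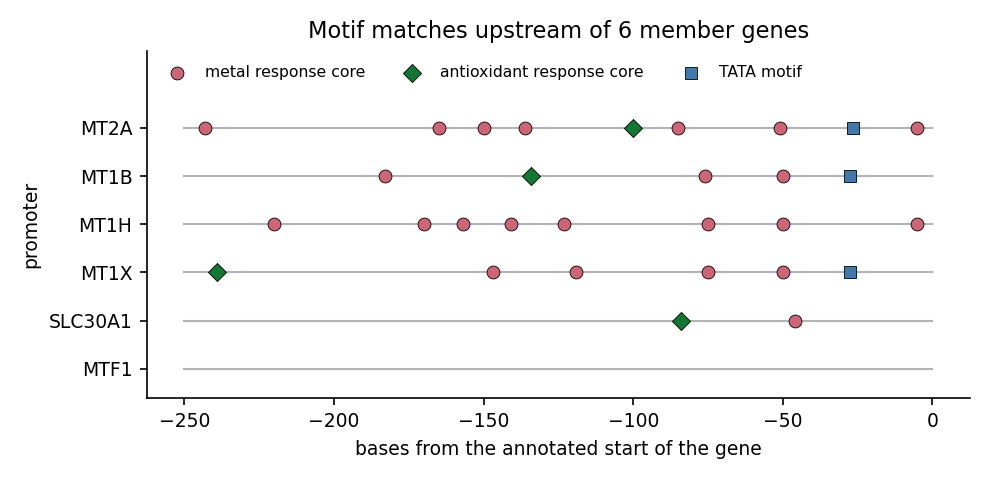
Positions of motif matches in the 250 bases before the annotated start of 6 member genes, 1 line a promoter, with the horizontal axis in bases from the start. Circles are metal response cores, diamonds antioxidant response cores and squares TATA motifs, and the 4 metallothionein promoters carry 3 to 8 metal response cores each.

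All 10 metallothionein probes that could be compared were dimmer on the HTE array than on the DMSO array. Their log2 ratios of HTE over DMSO ran from -2.04 to -0.33 with a median of -0.67. This median depends on how probes are combined, since it was -0.55 with the brightest probe of each gene and -1.09 with the mean over the probes of each gene. It also depends on the scaling, since scaling to the E1A spike-in RNA gave -1.88, with 12 member probes and 66.5% of all probes at least 2-fold lower. Over all 29680 probes kept, the median was 0 and 48.1% were below 0. At least 2-fold lower were 4 of the 10, while 2.90% of all probes were at least 2-fold lower. None of the 10 was at least 2-fold higher, against 5.20% of all probes. A log2 level of at least 4 on the DMSO array was reached by 867 probes, 7 of the 10 among them. Of these 867, 0 were at least 2-fold higher and 2 at least 2-fold lower. With the measured signal of dim probes kept, 1539 of the 29680 probes (5.19%) were at least 2-fold lower and 1651 at least 2-fold higher. The 4 metallothionein probes at least 2-fold lower belonged to MT1F, MT1G, MT1H and MT1X. In bulk RNA, fewer cells that express a gene and less RNA per cell cannot be told apart.

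MT1G, a metallothionein that is abundant in liver, had a processed signal of 68510 on the DMSO array and 16874 on the HTE array. Its log2 level went from 4.09 to 2.24, a log2 ratio of -1.85, or 3.61-fold lower. The signal of MT1F, another zinc and copper binding isoform, was 54909 on the DMSO array and 15676 on the HTE array, a log2 ratio of -1.64 (3.11-fold lower). Both genes had a single probe on the arrays. The error that the scanner software assigned to each of these signals was close to 10.0% of the signal, which gives an error of 0.20 on a log2 ratio. This share was nearly the same for every member probe and was not measured between replicate spots. The value of 0.20 is called the technical error here, and both differences were several times larger than it. The SD of the log2 ratio between replicate spots of other probes had a median of 0.05 (688 probes with at least 5 spots on both arrays). Neither value holds the variation between cultures.

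MT1H and MT1X each had a pair of probes that gave different sizes of change. The dimmer MT1H probe had a signal of 12628 on the DMSO array and 2723 on the HTE array, a log2 ratio of -2.04 (4.12-fold lower), the largest difference among the members. The brighter MT1H probe read 101436 and 66295, a log2 ratio of -0.44. For MT1X, the dimmer probe read 56014 on the DMSO array and 16182 on the HTE array, a log2 ratio of -1.62 (3.07-fold lower). The brighter MT1X probe read 106025 and 64276, a log2 ratio of -0.55. Both probes of each gene were lower after HTE, but the ratios of the pair differed by 1.60 for MT1H and by 1.07 for MT1X. A pair of probes well above background on each array was found for 3053 genes. The median difference within such a pair was 0.22, and a difference as large as that of MT1H was seen in 0.917% and one as large as that of MT1X in 3.14%. The files hold no probe sequences, so how far each probe also binds the transcripts of other metallothioneins was not tested.

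MT1E, the third gene with a pair of probes, gave nearly equal values. One probe read 134105 on the DMSO array and 73299 on the HTE array, a log2 ratio of -0.70. The other read 122108 and 69258, a log2 ratio of -0.65. Both were lower by more than the technical error of 0.20 and by less than 2-fold.

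MT1A and MT1B showed the smallest differences among the MT1 members. The MT1A probe read 102620 on the DMSO array and 72638 on the HTE array, a log2 ratio of -0.33. The MT1B probe read 89761 and 60932, a log2 ratio of -0.39. Each was lower after HTE by 1 to 2 times the technical error. Ratios as low as these or lower were found for 21.5% of all probes in the case of MT1A and 18.2% in the case of MT1B. Among the 867 probes with a log2 level of at least 4 on the DMSO array, these included, the 5th percentile of log2 ratios was -0.24.

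The MT1 probes formed 2 sets by size of change, a grouping made after the values were seen. The 6 with log2 ratios from -0.70 to -0.33 had signals of 89761 to 134105 on the DMSO array and 60932 to 73299 on the HTE array. The 4 with ratios from -2.04 to -1.62 had signals of 12628 to 68510 and of 2723 to 16874. On the DMSO array 96 probes were brighter than the brightest MT1E probe, and the highest signal was 287589.

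**Figure D2:**
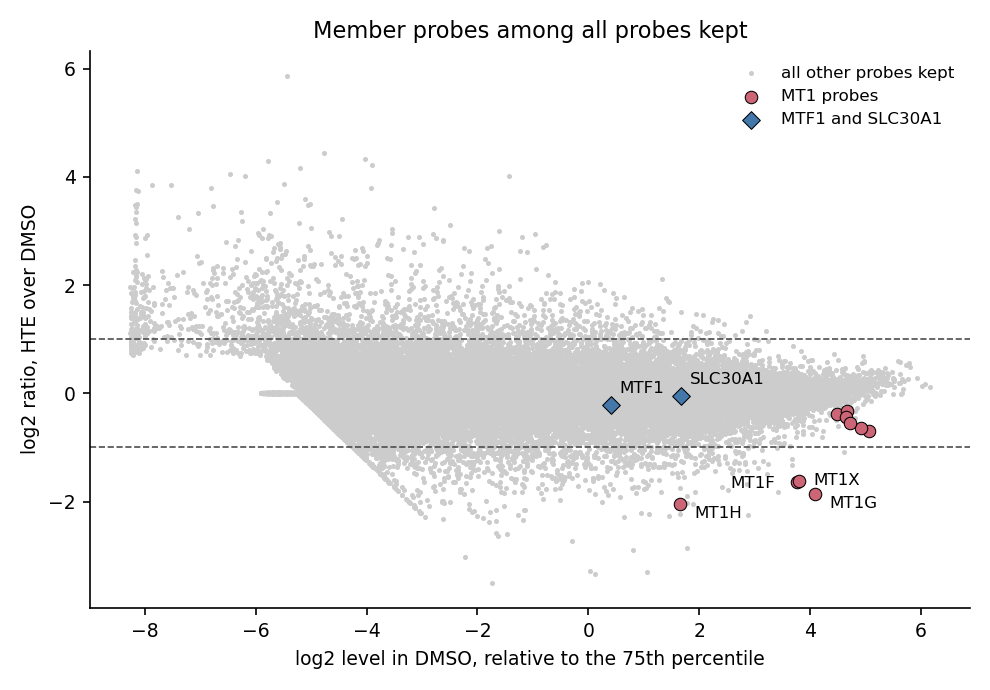
Log2 ratio of HTE over DMSO against the log2 level on the DMSO array for all 29680 probes kept, with the 10 MT1 probes as circles, MTF1 and SLC30A1 as diamonds and dashed lines at 2-fold. The MT1 circles all lie below 0, 4 of them below the lower dashed line, and the diamonds lie close to 0.

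MT2A, the most widely expressed human metallothionein, had 1 probe, and its spot on the DMSO array was flagged by the scanner software as not uniform, so it was left out of the counts above. Its processed signal was 61758 on the DMSO array and 52567 on the HTE array, a log2 ratio of -0.06 when the flagged spot is kept. The median pixel signals of the same spots, 78034 and 55937, gave -0.31. Both values are below 0, and they differ by more than the technical error, so the size of any change of MT2A could not be read from these arrays.

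MTF1, the zinc sensing factor itself, had a signal of 5309 on the DMSO array and 4039 on the HTE array, a log2 ratio of -0.22, close to the technical error of 0.20. SLC30A1, its target outside the metallothionein cluster, read 12861 and 10974, a log2 ratio of -0.06, which is smaller than the technical error. Ratios as low as these or lower were found for 28.6% of all probes in the case of MTF1 and 42.5% in the case of SLC30A1. All 10 MT1 probes had a lower log2 ratio than SLC30A1, the nearest being MT1A at -0.33, and the differences were not tested.

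Further metallothionein genes were covered by a list of 9, of which 6 had a probe and 5 could be measured. MT1M, a functional MT1 gene, read 31500 on the DMSO array and 14214 on the HTE array, a log2 ratio of -0.98, just short of 2-fold. MT1L, a transcribed pseudogene, read 115484 and 85393, a log2 ratio of -0.26, and MT3, known mainly from brain, read 404 and 260, a log2 ratio of -0.46. The other 2 were bounds. The pseudogene MT1IP was well above background only on the DMSO array (signal of 411 against 48.3) and was at least 3.85-fold lower after HTE, and the pseudogene MT1DP was well above background only on the HTE array (147.8 against 63.6) and was at least 2.50-fold higher. MT4, a metallothionein of squamous epithelium, did not reach this level on the DMSO or the HTE array. The direction of these 2 was fixed by the array on which they passed the background filter, and they support nothing. MT1M, MT1L and MT3, measured on both arrays, were all lower and none by 2-fold. By gene, 3.03% of 23752 genes and unnamed transcripts were at least 2-fold lower and 5.25% at least 2-fold higher.

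In the gene table the cluster holds 16 metallothionein genes and pseudogenes between the coding genes BBS2 and NUP93. The 4 probes with ratios of -1.62 and below belong to MT1F, MT1G, MT1H and MT1X, which lie together at one end in this order. The brighter probes of MT1H and MT1X did not share these low values. The pseudogene MT1IP, a bound, lies between MT1H and MT1X. MT1M (log2 ratio of -0.98) lies apart from them, between MT1E and MT1A. No relation of ratio to position was tested. In a list of 9 flanking genes on both sides, 8 were measured, 4 were lower and 4 higher, the median log2 ratio was 0.0045, and none was past 2-fold by its brightest probe. By brightest probe the lowest was NUP93, a nuclear pore component next to MT1X (log2 ratio of -0.72), and the highest GNAO1, a G protein subunit (0.63). GNAO1 was dim (signals of 142 and 195), and its other probe gave 1.22. A dimmer probe of another flanking gene gave -0.73. BBS2, at the other end of the cluster, had a log2 ratio of -0.01.

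**Figure D3:**
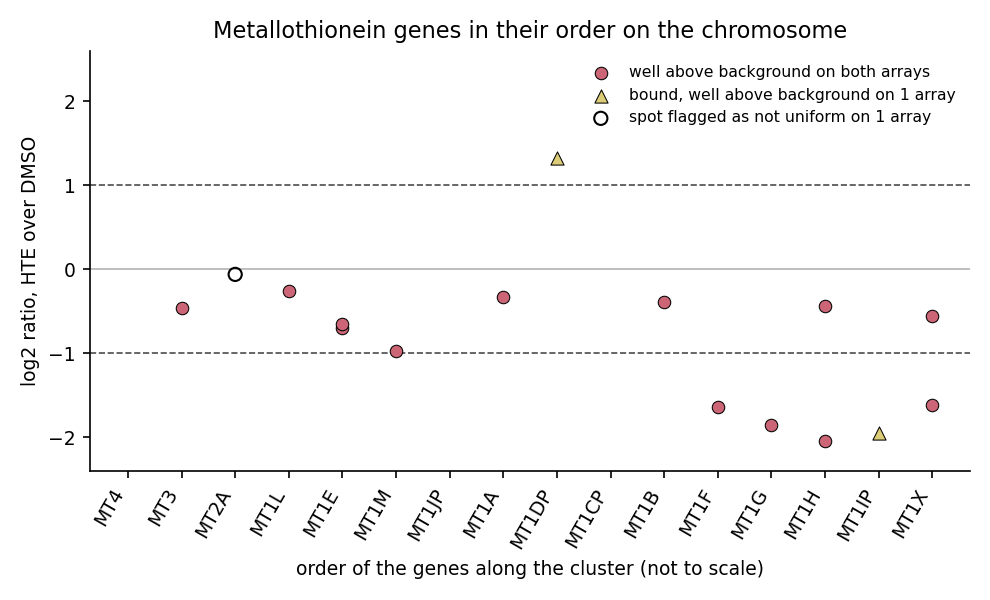
Log2 ratio of HTE over DMSO for each probe of the 16 metallothionein genes and pseudogenes, placed in their order along chromosome 16 and not to scale, with dashed lines at 2-fold. Circles are probes well above background on both arrays, triangles are bounds and the open circle is MT2A. The 4 filled circles below -1 belong to MT1F, MT1G, MT1H and MT1X, and genes without a symbol had no value.

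Zinc enters the cytosol through the SLC39 (ZIP) transporters and leaves it through the SLC30 (ZnT) transporters. Of the 9 SLC30 genes other than SLC30A1, 6 were well above background, 4 lower and 2 higher, with a median log2 ratio of -0.09. By brightest probe their range ran from -0.22 for SLC30A5, a transporter of the secretory pathway, to 0.49 for SLC30A10, a manganese exporter. The other probe of SLC30A5 gave 0.10. Of the 14 SLC39 genes, 12 were well above background, 5 lower and 7 higher, with a median of 0.15, which was -0.02 without scaling. By brightest probe the highest was SLC39A10, a plasma membrane importer that MTF1 is known to repress. Its signal was 884 on the DMSO array and 1464 on the HTE array, a log2 ratio of 0.90. The lowest was SLC39A7 (-0.14), which releases zinc from the endoplasmic reticulum. A dimmer probe of SLC39A14 gave -0.29. No zinc transporter of either family was past 2-fold.

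A last list held 8 further genes that have been linked to MTF1 or to zinc. By log2 ratio, 5 were higher and 3 lower, with a median of 0.23. HAMP, the gene of the iron hormone hepcidin, was lower (29472 on the DMSO array and 5491 on the HTE array, log2 ratio of -2.25). NDRG1, a stress-responsive gene, was higher (8740 and 19467, log2 ratio of 1.33), and so was SLC40A1, which encodes the iron exporter ferroportin (5398 and 9657, 1.01). These genes did not move in 1 direction, and 3 of the 8 were past 2-fold. Among all genes and unnamed transcripts 3.03% were at least 2-fold lower and 5.25% at least 2-fold higher. The list was chosen with earlier results of these data known.

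**Figure D4:**
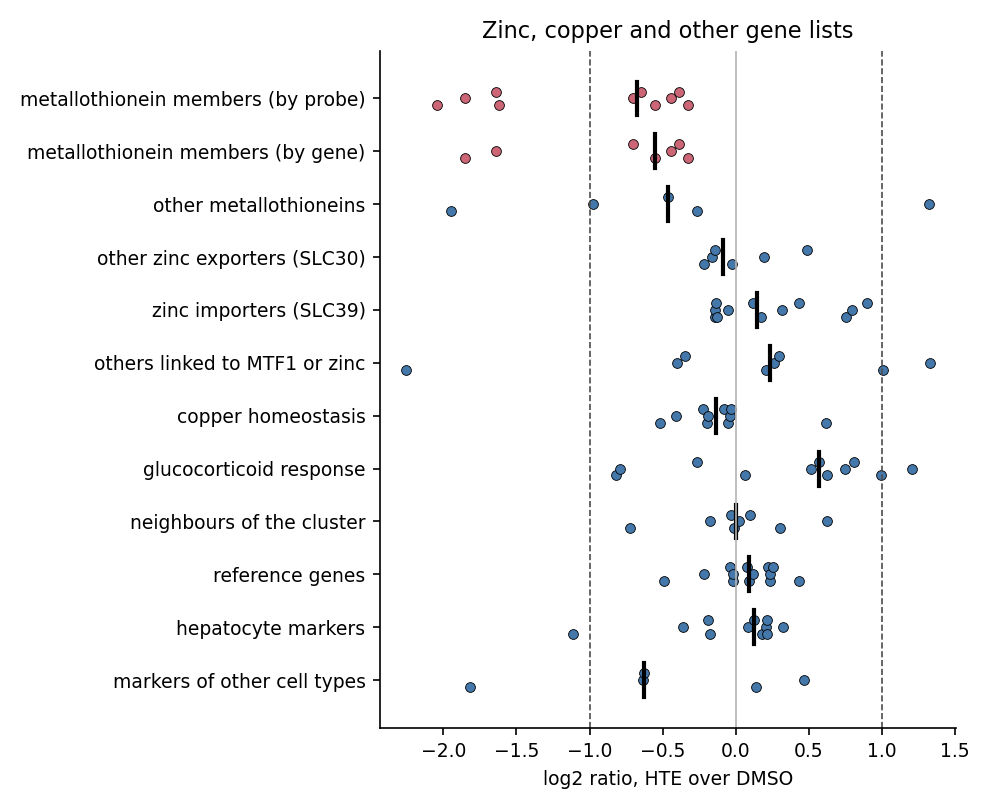
Log2 ratio of HTE over DMSO for the 10 MT1 probes (top row), for the 7 MT1 genes by brightest probe, and for the genes of each list by brightest probe, with a thick bar at the median of each row and dashed lines at 2-fold. The metallothionein medians are -0.67 by probe and -0.55 by gene, that of the markers of other cell types is -0.63 and that of the other metallothioneins -0.46, while the remaining medians run from -0.13 for copper homeostasis to 0.57 for glucocorticoid response.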

How the data were processed

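Total RNA of HepG2 cells was profiled on 1-colour (Cy3) Agilent SurePrint G3 human arrays, 1 for DMSO and 1 for HTE. The authors deposited Agilent Feature Extraction output (version 11.5.1.1 in the file headers, 10.7 in the submitters' processing notes). The deposited intensity values are processed signals, background-subtracted and detrended within each array and not scaled between arrays. The deposited error estimate and the flags for spots well above background, saturated or outlying came from the same software.

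Control spots and outlier spots (440 on the DMSO array and 459 on the HTE array) were left out, log2 was taken, and each array was shifted by its own 75th percentile (controls aside). Spots of one probe were averaged. A share of 0.5 of the spots had to be well above background on 1 array or both for a probe to stay, which left 29680 probes. Of these, 3319 were bounds, with the dim side set to the lowest signal well above background or its own signal, whichever was higher. A bound that then pointed away from the array where the probe was well above background was set to 0. Probes were named by RefSeq accession through the GRCh38.p14 gene table, which matched 28174 of 50599. The array design was made on another build, so no probe coordinates are given. Lists use the brightest probe of a gene. Members, lists and named genes were chosen with earlier results of these data known. Named are all members, all further metallothioneins with a probe, and the largest rise and fall and every gene past 2-fold of each list.

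The cutoff was 2-fold, as in the study's methods. No test was run, since there was 1 array a group, which also limits the precision of all values. The alternatives were normexp (offset 50, on the median signal, as the files hold no mean signal), 5 other scalings, 3 other treatments of dim probes, outlier spots kept, and other cutoffs and probe summaries. One more, subtraction of the median ratio of neighbouring spots, was chosen after seeing the data. All steps were first tested on simulated data. Software was Python 3.11.15 (numpy 2.4.6, pandas 2.3.3, matplotlib 3.10.9) and R 4.3.3 (limma 3.58.1).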

Additional observations from a re-analysis of the deposited data

How the results depend on the processing

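No paired analysis was possible because each condition has a single array, and for the same reason no replicate could be left out. All 10 metallothionein probes were below 0 under every alternative, the 4 that were at least 2-fold lower stayed so at a 3-fold cutoff, and no member probe was 2-fold higher under any. The median of the metallothionein probes was -0.79 with quantile normalization, -0.75 with scaling to the median and -0.84 without scaling, where the median over all probes was -0.15. It was -0.55 with the brightest probe of each gene and -1.09 with the mean over the probes of each gene, since MT1H and MT1X have probes that differ. Scaling to the E1A spike-in RNA lowered the ratio of every member probe compared and gave a median of -1.19 over all probes kept. It gave -1.88 for the metallothionein probes, with 12 member probes at least 2-fold lower, as were 66.5% of all probes. With the spike-in set aside, SLC30A1 stayed between -0.23 and -0.02 and MTF1 between -0.39 and -0.21. The median ratio of the neighbouring spots of each member lay between -0.06 and 0.08, and its subtraction, chosen after the data had been seen, left the 4 probes at least 2-fold lower. At a 1.5-fold cutoff 6 member probes were lower, the same 4 and both probes of MT1E. Ratios as low as those of the MT1E probes were found for 7.15% and 8.47% of all probes. The share was 15.5% for the brighter MT1H probe and 11.3% for the brighter MT1X probe. For each of the 4 probes at least 2-fold lower this share lay between 0.14% and 0.48%. The medians of hepatocyte markers, reference genes, SLC39 genes and the flanking genes changed sign under other scalings, and those of the glucocorticoid genes (-0.64) and of the further genes linked to MTF1 or zinc (-0.97) did so with the spike-in. Signal over background limits MT1IP, MT1DP, MT3 and MT4, and a single spot per probe and a single array per group limit all members.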

Other observations

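Metallothionein genes also answer glucocorticoids and their proteins bind copper, and a list was described for each of these systems. All 11 glucocorticoid response genes could be measured. After HTE 8 were higher and 3 lower, and their median log2 ratio of 0.57 stayed between 0.40 and 0.59 apart from scaling to the spike-in RNA (-0.64). The highest was DUSP1, a phosphatase that switches off MAP kinases (signal of 3763 on the DMSO array and 7699 on the HTE array, log2 ratio of 1.20), and the lowest SGK1, a kinase that glucocorticoids induce (9911 and 4979, -0.82). Only DUSP1 was past 2-fold, against 5.25% of genes and unnamed transcripts at least 2-fold higher. The 3 lower genes shared the direction of the MT1 genes and the 8 higher genes did not. Any relation of this list to the MT1 genes was not tested.

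Of 11 copper homeostasis genes, 10 could be measured, 9 lower and 1 higher, with a median log2 ratio of -0.13 and none past 2-fold. ATP7B, the copper pump of hepatocytes, was the lowest (11016 on the DMSO array and 6822 on the HTE array, log2 ratio of -0.52), and SLC31A2, a copper transporter of endosomes and lysosomes, was the only one higher (0.62). Among the hepatocyte markers, FGA, the fibrinogen alpha chain, was past 2-fold (16423 and 6736, log2 ratio of -1.11). Without scaling, the ratios of probes measured on both arrays fell by 0.17 on the log2 scale.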
